A study of Mus musculus with 11 samples.

Results

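Long noncoding RNAs (lncRNAs) chosen for lying away from opposite-strand gene starts were examined in newly made RNA of mouse embryonic stem cells after siRNA against Zc3h4. A gene was kept if the deposited exon table types it as lncRNA, its symbol does not begin with Snhg, its mean over 5 libraries was 10 or more, and no gene of that table starts on the opposite strand within 50 kb upstream. These conditions gave 359 far lncRNAs out of 13088 genes, 923 of them lncRNAs. Of the 359, 138 share bases with a counted gene body on the other strand and 221 do not. A further 401 lncRNAs met the other conditions but have an opposite-strand start within 50 kb, and are called near lncRNAs.

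The cells were wild-type F121-9, an established female mouse embryonic stem cell line from a CAST/129 hybrid, grown in serum-free medium with LIF and inhibitors of MEK and GSK3. They were transfected with 30 nM of non-targeting siRNA (siNT, replicates 1, 2 and 3) or of siRNA against Zc3h4 (siZC3H4, replicates 2 and 3). All cells received 500 µM 4-thiouridine (4sU) for 20 minutes and were harvested at 47 hours. In TT-seq the labelled, fragmented RNA is purified, so reads come mostly from RNA made during the labelling. The series also holds DMSO and dTAG-13 samples, not analysed here. The labels do not say that replicates were grown as separate cultures, so p-values measure only the spread between these samples, which may be technical.

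LncRNAs are mostly RNA polymerase II transcripts without a long reading frame. Many leave a promoter in the direction opposite to a coding gene, while others have a start of their own, often far from any gene. Many are spliced poorly, stop early and are degraded in the nucleus. ZC3H4, a zinc finger protein, acts with WDR82 in a complex called Restrictor that is known to stop RNA polymerase II on noncoding units such as upstream antisense and enhancer RNAs. Embryonic stem cells transcribe many lncRNAs of their own, among them the Platr group of pluripotency-associated transcripts.

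RefSeq windows of 250 bases before to 50 after the start were used to see what kind of start these lncRNAs have. By symbol or synonym 202 members matched, and 90 of these have a RefSeq start within 100 bases of the deposited one. The 4 windows below are those of 3 members that rose and of the 1 that fell (values follow), and are shown because they span the range from no CG dinucleotide to a CG-rich start. They are written 5′ to 3′ on the strand of the lncRNA, credited to RefSeq on GRCm38.p6, with capitals marking each CG. Ptprtos, on the plus strand at chr2:162390563-162390862, holds 0 CG dinucleotides, and Gm12784, on the plus strand at chr7:34546637-34546936, holds 8. The window of 1700001L05Rik, on the minus strand at chr15:83367248-83367547, holds 30, and that of Gm4890, on the plus strand at chr8:79294828-79295127, holds 44.
Ptprtos: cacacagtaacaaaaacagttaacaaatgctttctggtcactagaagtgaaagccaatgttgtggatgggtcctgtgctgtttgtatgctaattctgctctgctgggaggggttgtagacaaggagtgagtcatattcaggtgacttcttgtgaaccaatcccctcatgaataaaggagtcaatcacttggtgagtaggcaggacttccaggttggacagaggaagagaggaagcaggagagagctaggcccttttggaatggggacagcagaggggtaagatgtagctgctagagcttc
Gm12784: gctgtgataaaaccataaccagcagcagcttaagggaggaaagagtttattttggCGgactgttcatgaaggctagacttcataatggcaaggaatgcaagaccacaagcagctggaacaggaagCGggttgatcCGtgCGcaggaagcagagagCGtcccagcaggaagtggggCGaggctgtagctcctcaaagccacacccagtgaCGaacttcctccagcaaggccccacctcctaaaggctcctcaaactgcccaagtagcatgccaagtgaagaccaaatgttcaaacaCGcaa
1700001L05Rik: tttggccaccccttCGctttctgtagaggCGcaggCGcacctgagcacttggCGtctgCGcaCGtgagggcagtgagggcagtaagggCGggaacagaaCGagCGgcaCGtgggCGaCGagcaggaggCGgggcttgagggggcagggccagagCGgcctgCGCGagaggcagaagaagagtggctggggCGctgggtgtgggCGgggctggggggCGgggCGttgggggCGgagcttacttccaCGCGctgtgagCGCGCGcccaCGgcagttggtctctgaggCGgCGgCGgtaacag
Gm4890: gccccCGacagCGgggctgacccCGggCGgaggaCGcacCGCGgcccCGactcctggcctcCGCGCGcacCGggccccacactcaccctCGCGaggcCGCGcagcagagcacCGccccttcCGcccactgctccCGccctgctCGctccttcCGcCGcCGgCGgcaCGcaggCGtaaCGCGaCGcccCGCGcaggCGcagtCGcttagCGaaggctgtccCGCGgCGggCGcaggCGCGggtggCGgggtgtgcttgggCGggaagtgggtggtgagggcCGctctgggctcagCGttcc

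Starts of far lncRNAs held a median of 11 CG dinucleotides over the 90 windows, against 7 over 32851 RefSeq windows of the same length and 25.5 over 122 windows of near lncRNAs. The median was 10 in the 60 windows of members without an overlap and 30 in the 11 windows of members that begin just inside an opposite-strand gene. The letters TATAAA, searched on both strands, occurred in 10.0% of the members' windows, 13.6% of all windows and 4.92% of near windows. Among members without an overlap, the 31 windows with 10 or fewer CG had a median log2 difference (libraries labelled siZC3H4 minus siNT) of 0.36 and a median level of 48.9 reads. The 29 windows with more than 10 CG had -0.03 and 155 reads. In each of these classes 2 members rose, and the read level differed between them as well as the CG count.

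Exon reads before depth correction were 14840637 to 26548710 per library, and the members took 0.668% to 0.794% of the depth-normalized reads. The siRNA target itself did not settle the labels. Depth-normalized exon reads of Zc3h4 in the 3 siNT libraries were 3465, 3610 and 3363, against 7285 and 6718 where siZC3H4 was the label (log2 1.01 ± 0.11 SE, limma adjusted p = 0.00431). Newly made RNA is not mature mRNA, which the siRNA targets, so directions here are those of libraries labelled siZC3H4. Of 19 cell type markers tested, 0 passed limma, edgeR or DESeq2, and 3 had an unadjusted limma p under 0.05. Among all 12482 genes tested, limma called 277 higher and 18 lower. The 8 embryonic stem cell markers had summed levels of 89522 to 106425 against 75986 to 92314. Summed reads of the 4 neural markers were 1310 to 1595 against 1892 to 1944, and their part in the results was not tested. The fibroblast, mesoderm, endoderm and trophoblast lists had 1 of 6, 3 of 3, 2 of 4 and 1 of 3 genes in the table. Of a list of 32 genes of noncoding RNA restriction and decay, 30 were tested, of which only Zc3h4 rose, 0 fell, and the median log2 was 0.01.

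Among the 359 far lncRNAs, 33 rose in the libraries labelled siZC3H4 (9.19%), against 2.22% of the 12482 genes tested, and 1 fell, against 0.144%. Their median log2 difference was 0.36 (interquartile range -0.07 to 0.82), against 0.01 for all genes and for protein-coding genes, of which 188 of 11595 rose. With no filter on low values limma called 1 of the 359 higher and 0 lower (38 and 0 of 13088 genes), with 131 members at an unadjusted p under 0.05. Levels of 62 members were at least 2-fold higher and of 7 at least 2-fold lower, against 426 and 42 of the 12482 genes. The minimum uses the mean over all 5 libraries, so members low in 1 group could enter through the other. With a siNT mean under 10 there were 24 members, 2 of which rose, and with a siZC3H4 mean under 10 there were 6. Counts of rises may be raised by this. Here rose and fell mean past a Benjamini-Hochberg adjusted p of 0.05 in limma, fitted on log2(depth-normalized reads + 1) over all 12482 genes. Folds of single members are on this scale too, which understates changes of low genes. In bulk samples fewer cells of a type cannot be told apart from less RNA per cell.

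Both siZC3H4 libraries lay above every siNT library for 166 members (46.2%), against 19.5% of all genes, and below every siNT library for 31 (8.64%), against 12.8%. The members' median deviation from their own mean over the 5 libraries was -0.06, -0.25 and -0.12 in siNT replicates 1, 2 and 3 and 0.23 in each siZC3H4 library. For all genes it ran from -0.05 to 0.06. The calls rest on few libraries. Without siNT replicate 1 limma called 0 members in either direction, with 111 at an unadjusted p under 0.05. It then called 2 of all 12482 genes higher and 0 lower. With siNT replicate 2 left out 15 members and 165 of all genes rose, and with siNT replicate 3 left out 60 and 676. Leaving out siZC3H4 replicate 2 or 3 leaves 1 library in that group. The members' median log2 was then 0.38 and 0.35, against 0.06 and -0.01 for all genes. The 33 kept a log2 above 0 in each of these refits. On recovered whole reads, edgeR called 39 members higher and 2 lower, and DESeq2 54 and 9. Among all 12482 genes edgeR called 308 and 30, and DESeq2 529 and 146.

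By position, 18 of 221 members without an overlap rose (8.14%) and 15 of 138 with one (10.9%). Their median log2 differences were 0.29 and 0.44, and their median levels 72.1 and 48.1 reads. Among members with a mean of 50 or more reads the median log2 differences were 0.26 and 0.28. The overlapping members do not all fit the name far. Of the 138, 81 begin between 17 and 954 bases inside the start of an opposite-strand gene (median 376), a head-to-head layout that the upstream window does not see. In these 81, 9 rose and the median was 0.49, and in the other 57, 6 rose and the median was 0.41. None of the 138 fell in limma, 4 were lower at an unadjusted p under 0.05, and edgeR called 1 and DESeq2 3 lower. Near lncRNAs had 53 of 401 that rose (13.2%) and a median of 0.47. Differences between these classes were not tested.

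**Figure D1:**
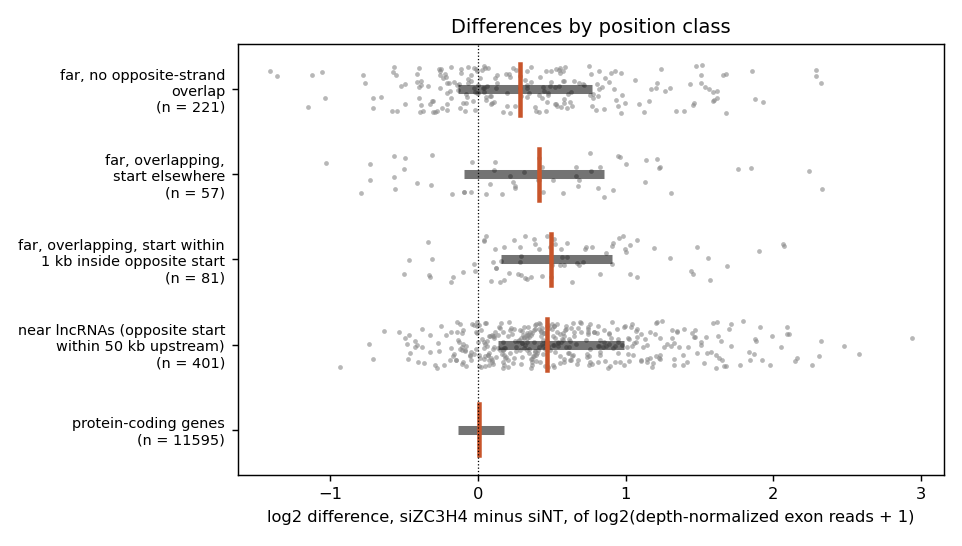
Log2 differences of exon reads, libraries labelled siZC3H4 minus siNT, by position class; each grey point is 1 lncRNA (points of protein-coding genes are not drawn), the dark bar spans the quartiles and the orange line is the median. Medians are 0.29, 0.41, 0.49 and 0.47 in the lncRNA classes and 0.01 in protein-coding genes, and the classes overlap widely.

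The exon table is also not all of the genome's starts. RefSeq places a start of a gene absent from the table on the opposite strand within 50 kb upstream of 91 members, that of a protein-coding gene for 36 of them, and within 1 kb of 16 members. Gm4890 is such a case, 83 bases from the start of Mmaa, and so is Gm12784, 688 bases from the start of the RefSeq gene Gm35297. Without these 91, 155 members without an overlap were left, of which 9 rose in limma, 12 in edgeR and 22 in DESeq2, and their median was 0.20. The distance to the next counted start upstream showed no steady order. Members with that start at 50 to 100 kb, 100 to 500 kb and beyond 500 kb (or none) had 7 of 87, 18 of 173 and 8 of 99 that rose, with medians of 0.36, 0.41 and 0.22.

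The largest rises without an overlap were then read library by library. Gm10535 (ENSMUSG00000097988, chromosome 1, 135108934 to 135113378, plus strand, mm10) had 26, 51.3 and 61.4 depth-normalized reads in siNT replicates 1, 2 and 3 and 240.0 and 206 in siZC3H4 replicates 2 and 3. The group means were 46.2 ± 18.3 (SD, n = 3) and 223 ± 24.3 (SD, n = 2), a 5.01-fold rise (log2 2.33 ± 0.35 SE, limma adjusted p = 0.0133). The groups did not overlap, although siNT replicate 1 was lower than the other siNT libraries. RefSeq places the start of Lgr6, a receptor gene of the R-spondin pathway, 3658 bases upstream of it on the other strand.

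Gm26868 (ENSMUSG00000097870, chromosome 9, 56606343 to 56614473) had 64, 58.3 and 49.5 reads against 351 and 226. The rise was 4.88-fold (log2 2.29 ± 0.26 SE), with the lowest adjusted p in limma among the members, 0.00439. Its siNT libraries lay close together, and siZC3H4 replicate 2 stood above replicate 3. Platr6 (ENSMUSG00000097107, chromosome 10, 21830499 to 21845777), a pluripotency-associated transcript, went from 20.0, 47.0 and 28.2 to 178 and 126 reads (log2 2.29 ± 0.37 SE, limma adjusted p = 0.0153).

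Gm12065 had 36, 21.7 and 29.9 reads in siNT and 117 and 107 in siZC3H4 (log2 1.93 ± 0.29 SE). Gm12059, on the same chromosome, had 59, 58.3 and 66.6 against 220.1 and 178 (log2 1.68 ± 0.22 SE). For Gm12784, whose start is printed above, the values were 43, 34.8 and 51.2 against 123 and 151 (log2 1.66 ± 0.27 SE). In all 3 the lower siZC3H4 library lay above the highest siNT library.

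Gm34397 had 15, 11.3 and 10.2 against 43.6 and 48.8 reads (log2 1.85 ± 0.34 SE) and Gm48287 24, 15.7 and 28.2 against 68.5 and 68.8 (log2 1.60 ± 0.33 SE). The limma adjusted p of these 5 ran from 0.00789 for Gm12059 to 0.0415 for Gm48287. Scaled to length, the 8 siNT means ran from 10.4 reads per kb of transcript for Gm34397 to 49.1 for Gm10535. The median over the 359 members was 50.7, but from means over all 5 libraries and not over siNT alone.

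The other 10 that rose without an overlap had log2 differences between 0.65 (4933404O12Rik) and 1.59 (Gm15894). Gm13110 had 491, 427 and 419 against 1206 and 816 (log2 1.16 ± 0.19 SE, limma adjusted p = 0.0155). Gm4890, with the CG-rich start printed above, had 345, 290.4 and 361 against 609 and 673 (log2 0.95 ± 0.16 SE). Rbm3os, an antisense-named transcript on the X chromosome, had 63, 60.0 and 72.5 against 142 and 143.4 (log2 1.12 ± 0.22 SE). In each of these the groups were separate. 4933439N14Rik, Gm12100, Gm26579, Gm10863 and Platr11 make up the rest with log2 1.45, 1.54, 1.30, 1.21 and 0.80.

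**Figure D2:**
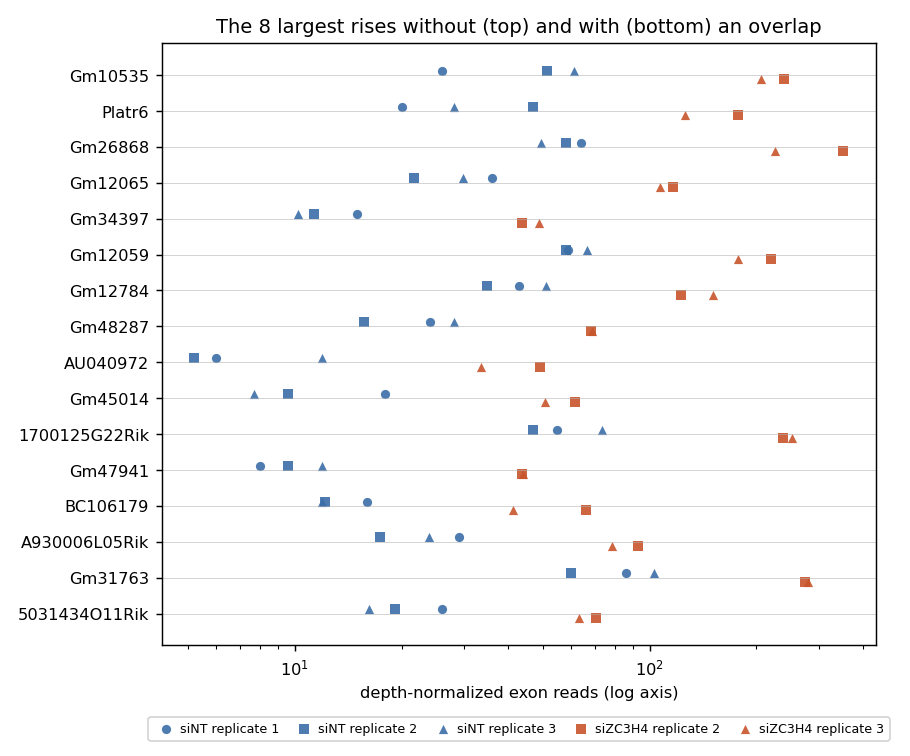
Depth-normalized exon reads (log axis) in each library of the 8 largest rises without an opposite-strand overlap (upper 8 rows) and with one (lower 8 rows); marker shape is the replicate number and colour the group. In all 16 the lower siZC3H4 library lies to the right of the highest siNT library, for example 126 against 47.0 reads for Platr6.

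The Platr transcripts, found through their expression in pluripotent cells, were all read as a named group. Of 12 far members 2 rose in limma, 2 in edgeR and 6 in DESeq2, and both siZC3H4 libraries exceeded every siNT library in 8, with a median log2 of 0.63. Over all 359 far lncRNAs 33, 39 and 54 rose in the same order, and the libraries were so separated in 46.2%. Over all 12482 genes tested these were 277, 308 and 529, and 19.5%. Platr11 (ENSMUSG00000098161, chromosome 9, 118404097 to 118406118) had 277, 264 and 328 reads against 467 and 539 (log2 0.80 ± 0.17 SE, limma adjusted p = 0.0481). Platr27 had 915, 837 and 727 against 1651 and 1197 (log2 0.77 ± 0.17 SE), and its limma adjusted p of 0.0541 missed the threshold. Platr9 had 330.0, 258 and 328 against 545 and 499 (log2 0.78 ± 0.17 SE) with the same adjusted p in limma.

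Platr26, Platr14 and Platr21 also kept the groups apart without passing. Platr26 had 115, 94.8 and 125 against 210.0 and 195 reads (log2 0.86 ± 0.21 SE), Platr14 715, 626 and 762 against 1161 and 971 (log2 0.60 ± 0.15 SE) and Platr21 208, 283 and 316 against 384 and 459.8 (log2 0.66 ± 0.21 SE). Their limma adjusted p-values were 0.0716, 0.0769 and 0.157. At the other end, Platr16 had 936, 868 and 914 against 817 and 1004 (log2 0.00 ± 0.14 SE) and Platr28 186, 266 and 195 against 203 and 163 (log2 -0.22 ± 0.22 SE), with overlapping groups. Platr1, Platr4 and Platr5 had log2 differences of 0.25, 0.32 and 0.04.

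**Figure D3:**
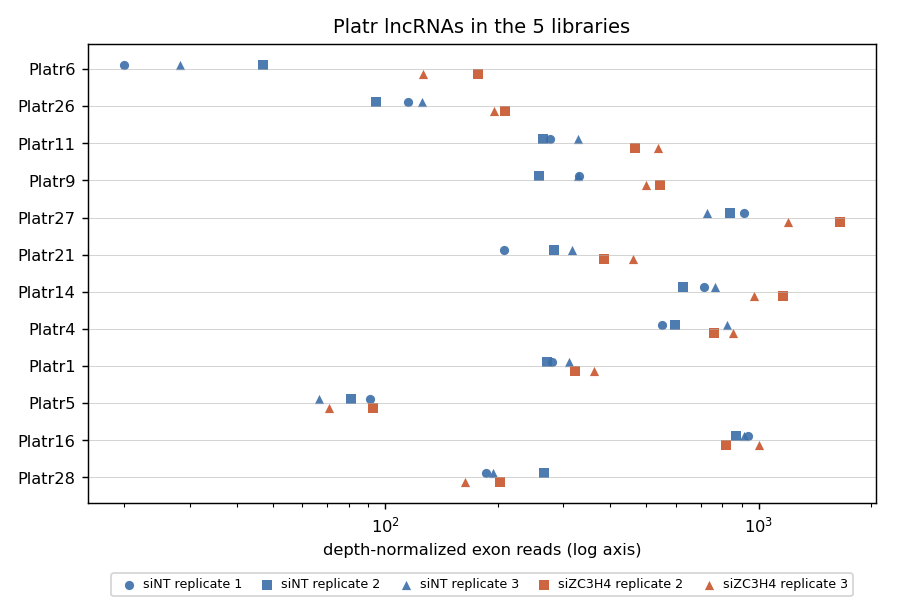
Depth-normalized exon reads (log axis) of the 12 Platr lncRNAs in each library, ordered by log2 difference from the highest (Platr6, 2.29) to the lowest (Platr28, -0.22). The 7 upper rows and Platr1 have both siZC3H4 libraries above every siNT library, and the other 4 rows overlap.

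The far lncRNAs with the most reads, counted without scaling to length, did not pass the test. 2410006H16Rik (ENSMUSG00000086841, chromosome 11, 62602877 to 62604807) had 20835, 16430.4 and 20662 reads against 19144 and 20523 (log2 0.05 ± 0.14 SE). Gas5, a spliced host of small nucleolar RNAs, had 15910.0, 13049.6 and 18879 against 14140.4 and 17437 (log2 -0.01 ± 0.17 SE). For Mir17hg, the host of a microRNA cluster that promotes growth, the reads were 11085, 10875 and 10261 against 10549.5 and 9975 (log2 -0.07 ± 0.11 SE). In each of the 3 the groups overlapped.

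Lncenc1, a lncRNA of naive pluripotent cells, had 4713, 4784 and 4757 against 5261 and 4893 (log2 0.09 ± 0.11 SE). It is a case of separate groups with a small difference, 1.07-fold. 5430416N02Rik had 4156, 3649.6 and 4717 against 3083 and 3902 (log2 -0.26 ± 0.15 SE). The 5 members with the most reads carried 44.1% to 50.5% of all member reads in a library. Rab10os, at 2145 ± 192 (SD, n = 3) against 2142 ± 430.1 (SD, n = 2) reads, was among those nearest to no difference (log2 -0.01 ± 0.15 SE).

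Of 15 members on a list of well-known lncRNAs, 0 passed limma, edgeR or DESeq2, 2 were higher at an unadjusted limma p under 0.05, and the median log2 was 0.09. Over all 12482 genes 2.22% rose in limma, and 15 members are too few to be set against that share. Sox2ot, transcribed around the pluripotency gene Sox2, had 383, 395 and 413 reads against 521 and 536, with separate groups (log2 0.41 ± 0.14 SE, limma adjusted p = 0.199). Panct2 had 110.0, 142 and 135 against 163 and 219 (log2 0.56 ± 0.22 SE). Meg3, an imprinted lncRNA expressed from the maternal allele, varied among siNT libraries, with 651, 1586 and 1296 against 1005 and 1065 (log2 -0.09 ± 0.31 SE). Pvt1, the neighbour of Myc, had 1209, 1795 and 1211 against 1346 and 1229 (log2 -0.10 ± 0.18 SE).

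Firre, an X-linked lncRNA of nuclear organisation, was lower in both siZC3H4 libraries, at 680.0, 651 and 739.8 against 579.5 and 609.9 (log2 -0.21 ± 0.14 SE), and did not pass. Halr1, beside the Hoxa cluster, had 55, 33.9 and 57.2 against 27.7 and 40.2 (log2 -0.49 ± 0.34 SE). The imprinted Airn, which overlaps Igf2r, was low at 9, 22.6 and 27.3 against 21.5 and 26.8 (log2 0.41 ± 0.47 SE). Mir100hg and Mir124a-1hg had log2 1.09 ± 0.73 and 0.52 ± 0.37 SE, with overlapping groups, and Hotairm1, 1810026B05Rik and Epb41l4aos 0.15, 0.11 and 0.05.

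Hosts of microRNAs formed a small set of 10 members that hold 16 RefSeq hairpins. None passed the limma test or edgeR and 1 was called higher by DESeq2, while 4 were higher at an unadjusted limma p under 0.05. Over all 12482 genes 2.22% rose in limma, and edgeR and DESeq2 called 308 and 529 higher. A set of 10 is too small to be set against such shares. In 7 the log2 was above 0, and the median was 0.55. Mir205hg had 204, 340.0 and 131 reads against 726 and 323, so siZC3H4 replicate 3 lay below siNT replicate 2 (log2 1.21 ± 0.41 SE). Mir142hg, which hosts a microRNA of blood cells, had 184, 163 and 189 against 402 and 272 (log2 0.89 ± 0.21 SE, limma adjusted p = 0.0668).

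The single fall was 1700001L05Rik (ENSMUSG00000075511, chromosome 15, 83357560 to 83367245, minus strand). It had 760.0, 809 and 672 reads with siNT, against 410.3 and 465. It fell by 0.77 on the log2 scale (SE 0.15, limma adjusted p = 0.0331), from 747 ± 69.1 (SD, n = 3) to 437 ± 38.4 (SD, n = 2), with separate groups. It begins 8362 bases after the end of Pacsin2, a gene of endocytosis on the same strand, whose own log2 was -0.19 (limma adjusted p = 0.57).

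That layout was counted over all members. In 45, the lncRNA overlaps a same-strand gene (2) or begins within 10 kb after the end of one (43). Of the 45, 2 rose (4.44%) and 1 fell (2.22%), 10 were lower in both siZC3H4 libraries than in every siNT library (22.2%) and the median log2 was -0.03. The 314 without such a neighbour had 31 that rose (9.87%), 21 lower in both (6.69%) and a median of 0.41. Among all 12482 genes 2.22% rose, 0.144% fell and 12.8% were lower in both. None of the 314 fell in limma or edgeR, 3 did in DESeq2, and 6 were lower at an unadjusted limma p under 0.05. EdgeR and DESeq2 called 30 and 146 of all genes lower. None of the 45 neighbouring genes passed limma or edgeR, 1 was called lower by DESeq2 and 3 had a lower level at an unadjusted limma p under 0.05, with a median of -0.04. The difference between the 45 and the 314 was not tested.

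Levels at least 2-fold lower were seen in 4 of the 45 and 3 of the 314, none past the test, and in 42 of all 12482 genes. Gm15892, after the splicing factor gene Srsf1, had 357, 267 and 527 reads against 132 and 244 (log2 -1.03 ± 0.32 SE), while Srsf1 had log2 -0.01. Gm14817, after Ssr4, and Gm44700, after the actin crosslinker gene Actn4, had log2 -1.03 ± 0.23 and -1.36 ± 0.65 SE. Gm37634 begins 1421 bases after Gas5 and had 810.0, 627 and 568 against 394 and 368 (log2 -0.79 ± 0.18 SE, limma adjusted p = 0.0551), while Gas5 had -0.01. In these 4 pairs the lncRNA was lower and the gene before it did not pass the test.

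Members that overlap an opposite-strand gene were read beside that gene. Those that begin within 1 kb inside its start come first. 1700125G22Rik (ENSMUSG00000097584, chromosome 3, 27153578 to 27157019, plus strand) begins 256 bases inside Ect2, a gene of cytokinesis. It had 55, 47.0 and 73.4 reads against 238 and 252 and rose 4.21-fold (log2 2.07 ± 0.25 SE, limma adjusted p = 0.00534). Ect2 had 2845, 2987 and 3933 against 2828 and 3632 (log2 -0.01 ± 0.17 SE), with overlapping groups.

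Gm47941, inside Susd6, had 8, 9.57 and 11.9 reads against 43.6 and 44.0 (log2 2.06 ± 0.35 SE, Susd6 0.26 ± 0.12). BC106179, inside the sialyltransferase gene St6gal1, had 16, 12.2 and 11.9 against 66.2 and 41.1 (log2 1.90 ± 0.35 SE, St6gal1 -0.12 ± 0.20). 5031434O11Rik, inside the lysine methyltransferase gene Setd7, had 26, 19.1 and 16.2 against 70.7 and 63.1 (log2 1.69 ± 0.32 SE, Setd7 0.03 ± 0.18). Each of the 3 lncRNAs had separate groups and rose, and none of the 3 genes passed the test.

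Among the others of this layout that rose were Gm12204 at Ube2b, Gm17249 at Polr3b, B230369F24Rik at Cox20 and A930012O16Rik at Gpd2. Their log2 differences were 1.19, 1.08, 1.00 and 0.91, against 0.01, -0.13, 0.42 and -0.03 for the genes. Over all 79 tested genes at whose start a member begins, 0 passed limma or edgeR, DESeq2 called 3 higher, 9 had an unadjusted limma p under 0.05, and the median log2 was 0.00. Among all 12482 genes limma called 277 higher and 18 lower, edgeR 308 and 30, and DESeq2 529 and 146.

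These 81 run across the opposite gene's start in the direction of its upstream antisense RNA (uaRNA), the short-lived transcript that leaves a promoter backwards. For 11 of them the opposite gene has a row in the deposited uaRNA table, whose coordinates are not given, so the same reads may be in both. Of the 11 uaRNAs 6 rose and 0 fell in limma, against 62.1% and 1.13% of the 5124 tested. The uaRNA of Gbx2, at log2 -0.05, was the only one of the 11 below 0. Setd7's uaRNA had log2 1.76 and 5031434O11Rik 1.69, and Gpd2's had 1.00 and A930012O16Rik 0.91. At Slc30a1 the values parted, 0.34 for the uaRNA and -0.50 for 1700034H15Rik. Over the 11 pairs the median absolute difference was 0.0732 on the log2 scale.

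Of members that overlap elsewhere, AU040972 (ENSMUSG00000091523, chromosome 11, 79481719 to 79484089) lies 144415 bases inside Nf1, which encodes a Ras-inactivating protein. It had 6, 5.22 and 11.9 reads against 49.2 and 33.5 (log2 2.33 ± 0.44 SE, limma adjusted p = 0.0303), while Nf1 had 1328, 1553 and 1506 against 1494 and 1536 (log2 0.05 ± 0.13 SE). It is one of 2 risen members with a siNT mean under 10, the other being Gm47941. In all, 24 members passed the minimum with a siNT mean under 10 and 6 with a siZC3H4 mean under 10.

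Gm31763, inside the endoplasmic reticulum gene Reep3, had 86, 60.0 and 103 against 274 and 279 reads (log2 1.76 ± 0.25 SE, Reep3 -0.01 ± 0.16). A930006L05Rik, inside the zinc finger gene Zbtb38, had 29, 17.4 and 23.9 against 92.8 and 78.4 (log2 1.85 ± 0.31 SE, Zbtb38 0.35 ± 0.25). Gm45014, inside Tm6sf1, had 18, 9.57 and 7.68 against 61.7 and 50.7 (log2 2.24 ± 0.41 SE), and Tm6sf1 had 32, 23.5 and 20.5 against 37.4 and 44.9 (log2 0.70 ± 0.32 SE). All 3 lncRNAs rose. Tm6sf1 was higher in both siZC3H4 libraries too but did not pass.

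Ptprtos, whose start has no CG, lies in the phosphatase gene Ptprt and had 91, 63.5 and 75.9 against 181 and 178 reads (log2 1.23 ± 0.23 SE, limma adjusted p = 0.0293). Ptprt had 4.27 to 10.5 reads per library and was not tested. Gm29200, in the laminin gene Lama3, had 71, 75.7 and 54.6 against 175 and 137 (log2 1.21 ± 0.25 SE, Lama3 0.39 ± 0.14).

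Over all overlapping members, 151 opposite-strand genes were involved and 149 were tested. None passed limma, where 19 had an unadjusted p under 0.05, while edgeR called 2 higher and DESeq2 called 7 higher and 2 lower. Among all 12482 genes limma called 277 higher and 18 lower, edgeR 308 and 30, and DESeq2 529 and 146. Their median log2 was 0.00, or 0.02 for the 14 tested under members that rose. Across 150 pairs the correlation of the 2 log2 differences was 0.07 by Pearson and 0.10 by Spearman, a description over pairs that share the same 5 libraries. The lncRNA's log2 exceeded the gene's in 116 pairs. Libraries were stranded, per the labels' protocols, but no source used here gives the strand setting of the counting.

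**Figure D4:**
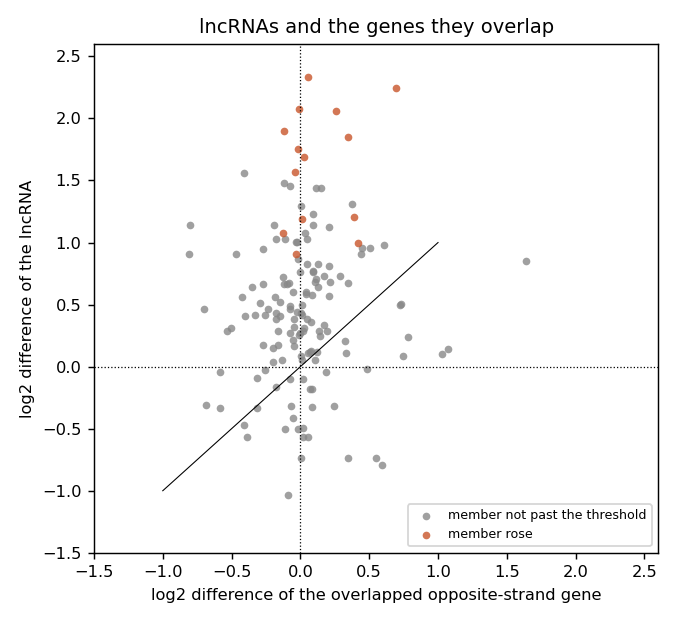
Log2 difference of each overlapping lncRNA (vertical) against that of the opposite-strand gene it overlaps (horizontal); each of the 150 points is 1 pair, orange where the lncRNA rose, and the diagonal marks equal differences. Points spread vertically around a horizontal value of 0, with 94 pairs where the gene lies within 0.2 of it.

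The overlapping members with the most reads did not pass. 5031425E22Rik, 395 bases inside the methyltransferase-family gene Kmt2e, had 788, 694 and 1092 against 673 and 1020.1 reads (log2 -0.02 ± 0.23 SE). Gm15265, in the lipid kinase gene Pi4kb, had 889, 688 and 869 against 514 and 578 (log2 -0.57 ± 0.16 SE, limma adjusted p = 0.111), with separate groups. Gm15663, at Tmtc2, had 1048, 587 and 671 against 506 and 692 (log2 -0.33 ± 0.25 SE), and 4833445I07Rik, at Ndufaf3, 446, 468 and 484 against 541 and 533 (log2 0.21 ± 0.14 SE). Zfp335os and 1810026B05Rik, known as Chaserr beside Chd2, were near 0 at 0.12 and 0.11.

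The share that rose differed by read level. Of 165 members with a mean of 10 to 50 reads 8 rose (4.85%), of 111 at 50 to 200 reads 16 (14.4%), of 68 at 200 to 1000 reads 9 (13.2%), and of 15 at 1000 or more reads 0 (2 at an unadjusted limma p under 0.05, 0 by edgeR and 1 by DESeq2). Over all genes the shares in these ranges were 2.46%, 4.31%, 2.46% and 0.669%. The members' medians were 0.47, 0.33, 0.29 and -0.01 in the same order. At 10 to 50 reads 38 of the 165 members were at least 2-fold higher, against the 8 that rose. The minimum and these ranges use the mean over all 5 libraries, so a member low in siNT could enter through its siZC3H4 values. Of the 359, 24 had a siNT mean under 10 and 6 a siZC3H4 mean under 10. The 2-fold count and the median of the lowest range may be raised by this. Of all 1300 genes in that range 206 were at least 2-fold higher and 32 rose. By span, 60 members of over 20 kb had 2 that rose and a median of 0.07, while 54 spanning 2 kb or less had 2 and 0.32.

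**Figure D5:**
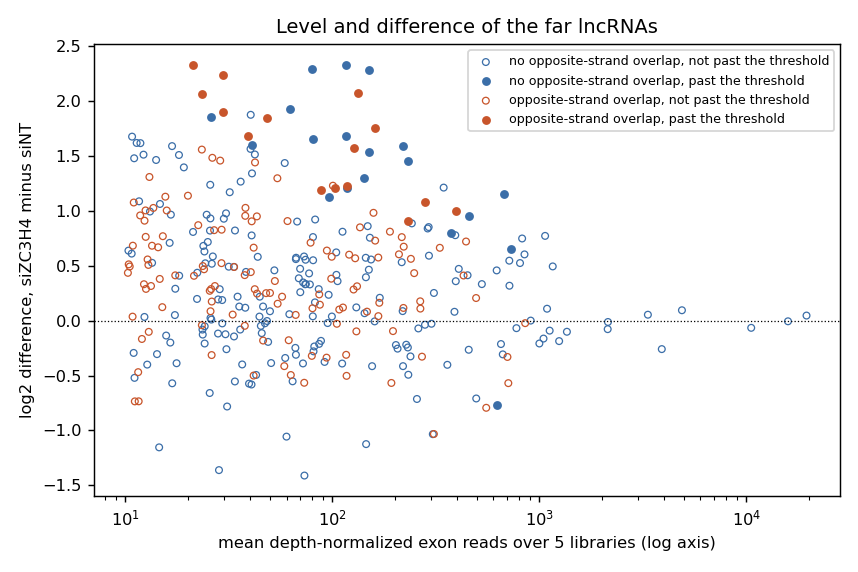
Log2 difference of each of the 359 far lncRNAs against its mean depth-normalized exon reads over the 5 libraries (log axis); filled points passed the limma threshold, blue without and orange with an opposite-strand overlap. The 33 filled points above 0 lie between 21.2 and 732 reads, the filled point below 0 is 1700001L05Rik, and the 15 members at 1000 or more reads lie between -0.26 and 0.77.

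At the edges of the rule, 4732487G21Rik and Gm36328 were just inside the minimum with means of 10.3 and log2 0.44 and 0.64. Gm13620 and Jpx, an activator of Xist, were just outside with 9.79 and 9.67. Jpx had 6, 6.09 and 5.12 reads against 15.8 and 15.3. For distance, Gm13610 and 2410006H16Rik were just inside at 51707 and 51836 bases, with log2 0.64 and 0.05, and Gm15672 and Gm26800 just outside at 49974 and 49495 bases, with 0.45 and -0.27. By symbol 232 members are lncRNA in RefSeq, 7 protein-coding and 4 pseudogenes, and 116 were not matched. The 7, among them Trerf1, a transcription regulator gene (922, 1034 and 1212 against 806 and 1024 reads, log2 -0.21 ± 0.16 SE), did not pass.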

How the data were processed

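TT-seq exon values of 3 siNT and 2 siZC3H4 libraries were used. The submitters' processing notes name STAR, cutadapt 1.14, DESeq2 and featureCounts, with builds mm10 and dm6. No source used here gives their order or settings. The authors deposited depth-normalized signal, per the file headers, for 13088 genes over exons and 5867 uaRNA regions. Each value equals whole reads divided by 1 depth factor per library (1, 1.15 and 1.172; 1.767 and 1.046), with 100% whole within 0.01 reads. No source gives how the factors were obtained. Exon reads were 14840637, 17563244, 18479834, 26548710 and 16173640.

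Genes with a mean of 10 or more were tested on log2(signal + 1) with limma 3.58.1 (eBayes with trend, R 4.3.3), siZC3H4 minus siNT, unblocked, with Benjamini-Hochberg adjustment over all 12482. The uaRNA table was fitted alone in the same way. Counts at an unadjusted p were made for the named sets and not over all genes. On the recovered reads, edgeR 4.0.16 called 308 genes higher and 30 lower and DESeq2 1.42.0 529 and 146. Code was tested on simulated data. A start is the lower coordinate on the plus strand and the upper one on the minus strand, and starts were compared within the table.

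Members and lists were chosen with earlier results of these data known. Named members are, in each overlap class, the 8 largest rises, up to 3 falls, the 5 highest means, the 3 nearest to 0 at a mean of 200 or more, the known lncRNA list and every Platr. The division at 1 kb inside a start, same-strand neighbours, RefSeq-only starts, CG, level, span and distance classes, microRNA hosts and the other members named were chosen after values were seen. Some named pairs are not reported here. RefSeq tables were of GRCm38.p6, whose chromosomes are those of mm10.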

Additional observations from a re-analysis of the deposited data

How the results depend on the processing

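Compared with 33 members that rose and 1 that fell, 1 rose and 0 fell with no filter on low values, 54 and 9 with DESeq2, and 122 and 20 with the replicate number as a block. Over all 12482 genes DESeq2 called 529 higher and 146 lower, and the block fit 1530 and 830. Deviations from the group means correlated between same-numbered libraries (r = 0.53 for replicate 2 and 0.62 for replicate 3). With only 2 siZC3H4 libraries these deviations mirror each other, so the r values are not separate observations and cannot decide on pairing. The labels do not tie the numbers. In the block fit siNT replicate 1 drops out, which leaves few libraries to estimate the spread. The number that fell was 2 with the median of ratios, 2 with TMM and 2 with edgeR, and 0 without members that have a same-strand neighbour or a RefSeq-only opposite start within 50 kb. The cause was not tested, except that the last settings hold fewer members. Leaving out 1 siNT library at a time gave 0 to 60 that rose and 0 to 5 that fell. Over all 12482 genes these fits gave 2 to 676 and 0 to 138. Leaving out any 1 library gave medians of 0.33 to 0.55 for overlapping members. At a mean of 50 or more the median was 0.28 for overlapping members and 0.26 for those without an overlap. The median was 0.20 for members without an overlap once RefSeq-only starts were left out, a setting chosen after seeing the data. Of the 33, 32 were called with the median of ratios, 31 with TMM, 32 with edgeR, 33 with DESeq2, and 33 with a pseudocount of 0.5 or 10. With the opposite-strand window at 20 kb 42 of 439 rose, and at 100 kb 26 of 272. Over 52 named members and 717 alternative values, 75 lost the call, 23 gained it, 21 moved with no call and 598 did none of these. The sign stayed in all 244 values of the 18 named members past the threshold, which was largely set by picking them in these same libraries. The sign changed in 31 of 473 values of the 34 others, in 13 members whose log2 was within 0.41 of 0.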
